A study of Homo sapiens with 39 samples.

Results

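Sucrose gradients sort messenger RNAs by the number of ribosomes they carry, and the comparison here sets the middle of such a gradient, fractions 4 and 5, against the fractions on either side, 3 and 6. The members are 12 RNA-seq libraries, 6 from the middle and 6 from the flanks, chosen by the fraction number in their labels out of 24 polysome libraries and 39 samples in all. They come from 3 lines of human bronchial epithelial cells (HBEC) grown in serum-free keratinocyte medium with pituitary extract and EGF: one wild type for U2AF1 (WT), one carrying the S34F change in U2AF1 (S34F), and one whose title reads Frame Shift (FS), for which the labels do not say which allele is shifted or whether a line is 1 clone. No drug, time or dose differs between them. Each line gave 1 library per fraction, so the 3 lines are the only replication. A difference between lines that is equal in all fractions is taken up by line as a block. Differences between lines that vary with fraction, by genotype or otherwise, are part of the residual spread. The spread behind a p-value is that between these samples alone, which may be technical.

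In a polysome gradient an actively translated mRNA sediments in proportion to its ribosomes, and with similar initiation a longer coding region holds more of them. Short mRNAs such as those of ribosomal proteins and respiratory chain subunits therefore tend to sit in light and middle polysomes, and long mRNAs of adhesion and cytoskeletal proteins in heavy ones. U2AF1 is the small subunit of U2AF, which marks the end of an intron for the spliceosome, and S34F is a recurrent cancer mutation in one of its zinc fingers. An RNA with an even course over the gradient, or one that climbs or declines steadily from fraction 3 to fraction 6, gives a value near 0 in this comparison. A positive value marks a peak in the middle and a negative value a dip.

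Levels are given as CPM, the counts relative to library size after scaling by edgeR's TMM factors. Since this sets all fractions to a common size, the amount of RNA in a fraction is lost, and a level is the share of a gene among the RNAs of its fraction. The 6 middle libraries held 5187992 to 13367574 counts and the 6 flanking libraries 4819986 to 11911494, and a count of 0 allowed at most 0.199 to 0.792 CPM in these 12 libraries (3 counts, counting error only). Libraries stood apart in several ways. Fraction 4 was poor in short RNAs in all 3 lines: genes with models under 1000 bases made up 7.15% of the counts in WT fraction 4, 10.5% in S34F and 6.34% in FS, the lowest share among fractions 3 to 6 of each line. WT fraction 4 correlated more closely with WT fraction 1 (r = 0.92 across genes) than with WT fraction 3 or 5 (0.81 each), while S34F fraction 4 was about as close to its neighbour fraction 3 (0.91) as to fraction 2 (0.92), and less so to fraction 5 (0.86) or 6 (0.78). FS fraction 4 was at 0.90 with fraction 2, 0.88 with 5 and 6 and 0.85 with 3. Whether the libraries labelled fraction 4 carry the right label was not tested, so every value for fraction 4 is that of the library so labelled. In S34F fraction 6 many short, abundant mRNAs were far above the other 5 flanking libraries.

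No gene passed the test for a peak or a dip in the combined middle. By edgeR's quasi-likelihood test with Benjamini-Hochberg adjustment, 0 genes (0%) were higher and 0 (0%) lower in fractions 4 and 5 than in 3 and 6 among 15945 tested, and the lowest adjusted p was 0.288. The unadjusted p was under 0.05 for 1620 genes below and 205 above, and DESeq2 called 56 lower and 2 higher. Of the 56 genes DESeq2 called lower, 28 coded for ribosomal proteins (28 of 80 tested), 5 for respiratory chain subunits (5 of 78), 2 for S100 proteins and 2 for redox and metal-binding proteins. The 2 called higher by DESeq2 were SH2B3, an adaptor of cytokine receptor signalling, and the zinc finger gene ZC3H7B. The median log2 difference over all genes was -0.07, and 9128 of 15945 lay below 0. The call rests on the choice of flanks. With fractions 2 and 7 in place of 3 and 6, edgeR called 102 genes higher and 18 lower, so that the balance turned towards peaks.

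RPL11, a large-subunit ribosomal protein that also restrains MDM2, had the lowest p of the comparison. In fractions 3, 4, 5 and 6 its level was 608, 62.7, 193 and 111 CPM in WT, 733, 189.8, 348 and 402 CPM in S34F, and 499.9, 129, 148.8 and 127 CPM in FS. In each line fraction 3 was highest. Fraction 6 lay between the middle libraries in WT, just below both in FS and above both in S34F. The difference of the middle from the flanks was -1.06 ± 0.23 log2 (SE, adjusted p = 0.288). COX6C, a subunit of cytochrome c oxidase, was at 53.6, 11.1, 82.7 and 51.8 CPM in WT, 37.0, 19.99, 125 and 292 CPM in S34F and 33.2, 8.12, 45.6 and 58.8 CPM in FS. Its difference was -1.16 ± 0.27 (adjusted p = 0.288), although fraction 5 was above fraction 3 in every line and only fraction 4 was low. RPA3, the smallest subunit of the single-strand DNA-binding protein RPA, differed by -1.33 ± 0.31, and SEC61G, a subunit of the protein channel of the endoplasmic reticulum, by -1.29 ± 0.29 (adjusted p = 0.288 for each). These 4 genes are named for their low p after their values were seen.

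**Figure D1:**
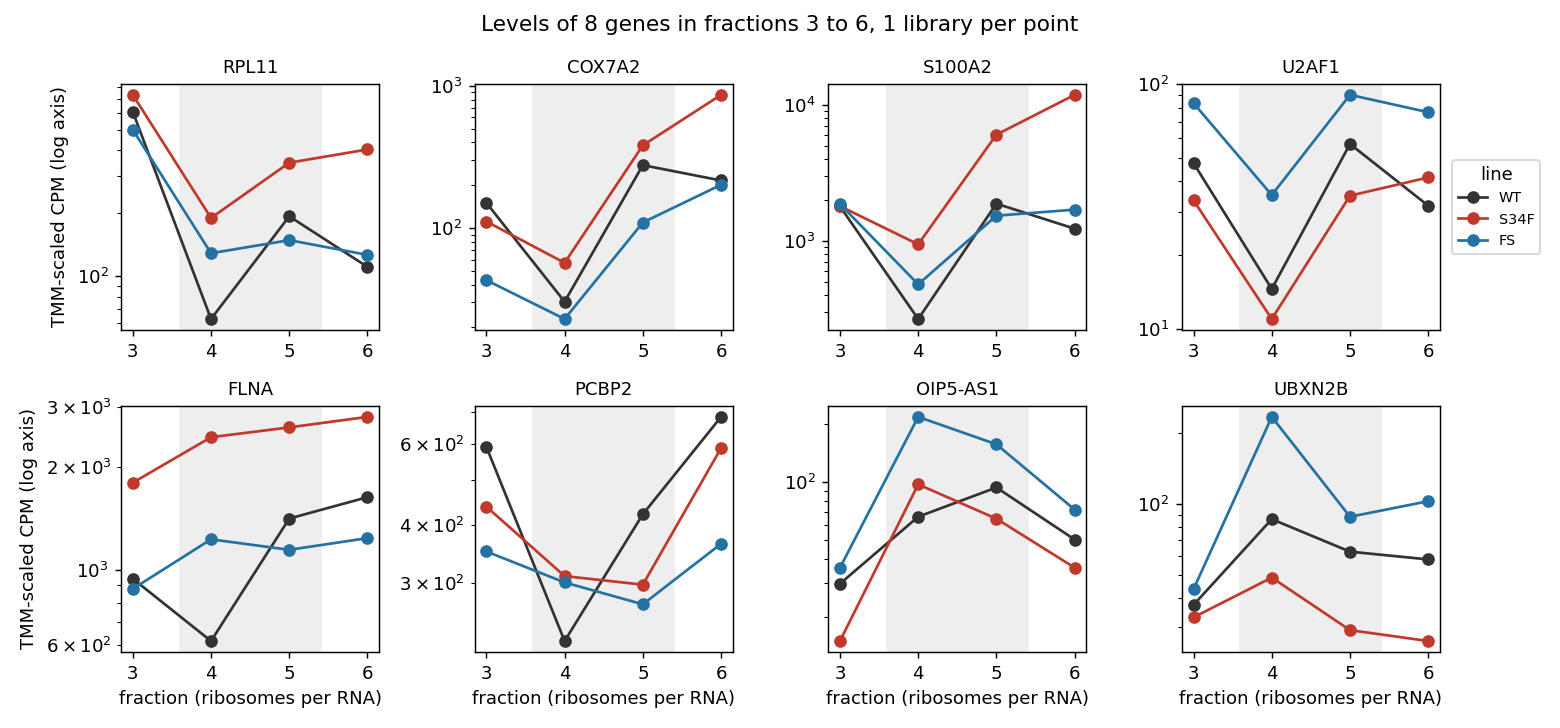
TMM-scaled CPM (log axis, each panel with its own range) of 8 genes in fractions 3, 4, 5 and 6, with 1 library per point and 1 line per colour; the grey band marks the middle fractions. COX7A2, S100A2 and U2AF1 are lowest in fraction 4 in each line, RPL11 in WT and S34F, PCBP2 is below both flanks in fractions 4 and 5, OIP5-AS1 and UBXN2B are highest in fraction 4 or 5, and FLNA has no common course.

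Few RNAs had the full shape, with both middle libraries beyond both flanks in all 3 lines. It was a dip for 40 genes (0.251%) and a peak for 32 (0.201%), of which 21 and 4 had a mean of at least 10 CPM and no library at 0. PCBP2, which codes for a poly(C)-binding protein that acts in mRNA stability and translation, was at 590.1, 225, 422 and 685 CPM in WT, 438, 310.5, 298 and 586 CPM in S34F, and 351, 301, 269.9 and 365 CPM in FS. Both middle values were under both flanks in each line, and the difference was -0.69 ± 0.20 (adjusted p = 0.288). NDUFA9, a subunit of respiratory complex I, had the same shape at -0.71 ± 0.22, UXS1, which makes UDP-xylose for proteoglycans, at -0.79 ± 0.24, SNRPD3, an Sm core protein of the spliceosomal snRNPs, at -0.52 ± 0.17, and PA2G4, a growth-regulated RNA-binding protein, at -0.54 ± 0.21. None of these passed the adjusted test. The 4 abundant peaks were OIP5-AS1, POU2F1, ERBB3 and FER1L4. OIP5-AS1, a cytoplasmic long noncoding RNA, was at 29.9, 66.2, 93.8 and 50.5 CPM in WT, 15.1, 97.4, 64.7 and 36.1 CPM in S34F, and 36.1, 218, 157 and 72.1 CPM in FS. It stood 1.54 ± 0.45 log2 above the flanks (adjusted p = 0.288). Use of strand in the counting is not stated, so reads of OIP5-AS1 and of a gene on the other strand cannot be told apart. POU2F1, the octamer-binding transcription factor OCT1, and ERBB3, a receptor of the EGF receptor family, lay 0.41 ± 0.18 and 0.39 ± 0.17 above.

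The fixed reference genes showed no called difference. GAPDH was at 7348, 3263, 5883 and 4560 CPM in fractions 3 to 6 of WT, 9414, 4730, 5358 and 6524 CPM in S34F, and 4629, 3215, 2338 and 2499 CPM in FS, a difference of -0.44 ± 0.26 (adjusted p = 0.539). EEF1A1, an elongation factor that delivers charged tRNAs, differed by -0.60 ± 0.24 (adjusted p = 0.354), NPM1, the nucleolar chaperone nucleophosmin, by -0.64 ± 0.24 (0.320), the tubulin gene TUBA1B by -0.69 ± 0.30 (0.384) and the actin gene ACTB by -0.29 ± 0.26 (0.670). CXCL8, the neutrophil chemokine IL-8, was low throughout, at 0 to 8.30 CPM, and differed by -0.31 ± 0.44 (0.810). U2AF2, the large partner of U2AF1, differed by -0.27 ± 0.24 (0.665).

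The combined middle joined 2 unlike fractions. Fractions 4 and 5 were therefore each set against fractions 3 and 6, a comparison added after the data were seen. In fraction 4, 2195 genes (13.8%) were lower and 126 (0.79%) higher at an adjusted p under 0.05, and 1760 of the lower ones fell at least 2-fold. In fraction 5, edgeR called 0 genes (0%) higher and 0 (0%) lower, with an unadjusted p under 0.05 for 105 and 128, and DESeq2 called 1 higher and 0 lower. Directly compared, 2080 genes (13%) were higher in fraction 5 than in fraction 4 and 58 (0.364%) lower. These comparisons share libraries. In all 3 lines fraction 4 was the lowest of the 4 fractions for 2693 genes (16.9%) and the highest for 693 (4.35%), while fraction 5 was the lowest for 123 (0.771%) and the highest for 206 (1.29%). Of the 2195 genes lower in fraction 4, 1916 (87.3%) had it as the lowest fraction in each line. The same libraries gave the calls, so this share describes the called genes and is no separate support for the dip.

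The split in fraction 4 moved with the scaling. With relative log expression factors, edgeR called 1256 higher and 1633 lower, the higher share went from 5.43% to 43.5% of the calls, and the median of all genes shifted from -0.07 to 0.17. DESeq2 gave 1556 higher and 1971 lower (44.1%). Single libraries set the count of lower genes: it was 240 without WT fraction 4, 1096 without S34F fraction 4 and 1441 without S34F fraction 6, and all 2195 genes kept a value below 0 in these fits. The count of higher genes went down to 1 without WT fraction 4, 11 without S34F fraction 4, 21 without S34F fraction 6, 30 without WT fraction 3, 42 without FS fraction 3, 60 without WT fraction 6 and 75 without WT fraction 5. It went up to 284, 841 and 1037 without FS fraction 5, 4 and 6. Of genes higher in fraction 5 than in 4, 850 were called without WT fraction 4 and 1375 without S34F fraction 4, and the 58 lower ones became 5 to 354 when single libraries were left out. Without the line as a block, 495 genes were lower and 5 higher in fraction 4.

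Ribosomal protein mRNAs, which carry a terminal oligopyrimidine tract and are controlled together by mTOR signalling, fell in fraction 4. It was lower for 35 of 47 large-subunit and 27 of 33 small-subunit genes and higher for none, with medians of -1.31 and -1.43 log2 beside -0.07 for all genes, against a background of 13.8% called lower. Among all genes with models from 500 to under 1000 bases and a mean of at least 10 CPM, 79.6% were lower (median -1.49). In fraction 5 the medians of the 2 ribosomal lists were -0.19 and -0.21 with no calls. RPS26, a small-subunit protein near the mRNA exit channel, was at 234, 41.1, 347 and 150 CPM in WT, 140.3, 73.5, 409 and 683 CPM in S34F, and 70.0, 28.7, 118 and 195 CPM in FS. Fraction 4 was the lowest of the 4 in each line, and RPS26 fell by 2.21 ± 0.43 (adjusted p = 0.00246) in fraction 4. RPS29 changed by -2.21 ± 0.41 (0.0023) and RPL39, a small protein of the exit tunnel, by -1.90 ± 0.38 (0.00266). RPS2 and RPLP0, the most abundant uncalled members, differed by -0.71 ± 0.30 and -0.78 ± 0.30 (adjusted p = 0.109 and 0.0865). Ribosomal protein genes have many processed pseudogenes, among which the deposited counting could have split reads. Of 80 ribosomal genes in both lists, 62 were lower in fraction 4, and 55 with relative log expression factors, 3 without WT fraction 4, 38 without S34F fraction 4 and 46 without S34F fraction 6. The median of the 80 went from -1.34 to -1.11 without WT fraction 4.

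Nuclear genes of the mitochondrial machinery also fell. In fraction 4, 60 of 78 respiratory chain and ATP synthase genes were lower and none higher (median -1.67), as were 47 of 76 mitochondrial ribosomal proteins (median -1.19, and 8 without WT fraction 4), beside 13.8% of all genes. Among all genes with a mean of at least 10 CPM, 79.6% were lower for models from 500 to under 1000 bases and 66.7% from 1000 to under 1500. COX7A2, a small subunit of cytochrome c oxidase, was at 150.3, 30.3, 277 and 216 CPM in WT, 111, 56.9, 382 and 866 CPM in S34F, and 42.9, 22.9, 109 and 202 CPM in FS. It was lowest in fraction 4 in every line and fell by 2.43 ± 0.38 (adjusted p = 0.0022), while its value in fraction 5 was 0.30 ± 0.33 above the flanks. NDUFA1, a complex I subunit, fell by 2.54 ± 0.50 (0.00246), with 16.2 CPM in fraction 3 and 15.7 in fraction 4 of S34F, so that in this line the dip was against fraction 6 only. ROMO1, a small inner-membrane protein that modulates reactive oxygen species, changed by -2.76 ± 0.48 (0.0022), and the mitochondrial ribosomal genes MRPL33 and MRPL34 changed by -2.19 ± 0.45 and -2.02 ± 0.39 (0.00282 and 0.0023). ATP5EP2, with a change of -2.51 ± 0.46, is a near copy of the ATP synthase gene ATP5E and its counts are uncertain. Without WT fraction 4 the respiratory chain list kept 19 lower genes with a median of -1.47, without S34F fraction 4 it had 48, and without S34F fraction 6 it had 47 lower and 1 higher.

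Some splicing genes fell. Of the Sm and LSm proteins, the small ring-forming cores of snRNPs and of the decay machinery, 14 of 16 were lower in fraction 4 (median -1.74), 4 without WT fraction 4 and 9 without S34F fraction 4. Their median model was 972.5 bases. Over all genes 13.8% were lower. Among genes with a mean of at least 10 CPM and models from 500 to under 1000 bases, 79.6% were. SNRPD2 was at 238, 54.2, 394 and 186 CPM in WT, 250.5, 129, 592 and 889 CPM in S34F, and 181, 60.4, 228 and 291 CPM in FS, lowest in fraction 4 each time, and it fell by 1.98 ± 0.35 (adjusted p = 0.0022). Of 32 core spliceosome genes 8 were lower and none higher (median -0.35), 3 without WT fraction 4 and 5 without S34F fraction 4. The median model of these 32 genes was 2649.5 bases. This share was close to that of all genes of such length. With a mean of at least 10 CPM, 24.6% of models from 2000 to under 3000 bases were lower. The part of length in these shares was not tested. SF3B5 and SF3B6, 2 small subunits of the SF3b complex that binds the branch point region, changed by -1.93 ± 0.36 and -1.85 ± 0.35 (0.0023 each), whereas SF3B3, a large scaffold subunit of the same complex, was at 147.9, 206, 157 and 139 CPM in WT, 202, 188, 153 and 116 CPM in S34F and 198, 310.2, 211 and 212 CPM in FS, and differed by 0.47 ± 0.21 (0.126). U2AF1 itself was at 47.5, 14.5, 56.9 and 31.8 CPM in WT, 33.5, 10.9, 35.0 and 41.5 CPM in S34F, and 83.7, 35.2, 90.5 and 76.8 CPM in FS. Fraction 4 was its lowest fraction in each line and U2AF1 fell by 1.43 ± 0.38 (adjusted p = 0.0121), with 0.17 ± 0.35 in fraction 5. FS had the highest level of U2AF1 in each of the 4 fractions. Some genome builds carry a near-identical copy of U2AF1, so its counts are uncertain. Gene counts do not show a point mutation or a frame shift, so they do not check these labels. U2AF2 differed by -0.47 ± 0.30 in fraction 4 (0.288). SR proteins and hnRNPs, the regulators of splice site choice, had 3 of 31 genes lower (median -0.39), a smaller share than the 13.8% of all genes, among them SRSF9 with a change of -1.38 ± 0.36 (0.0116).

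**Figure D2:**
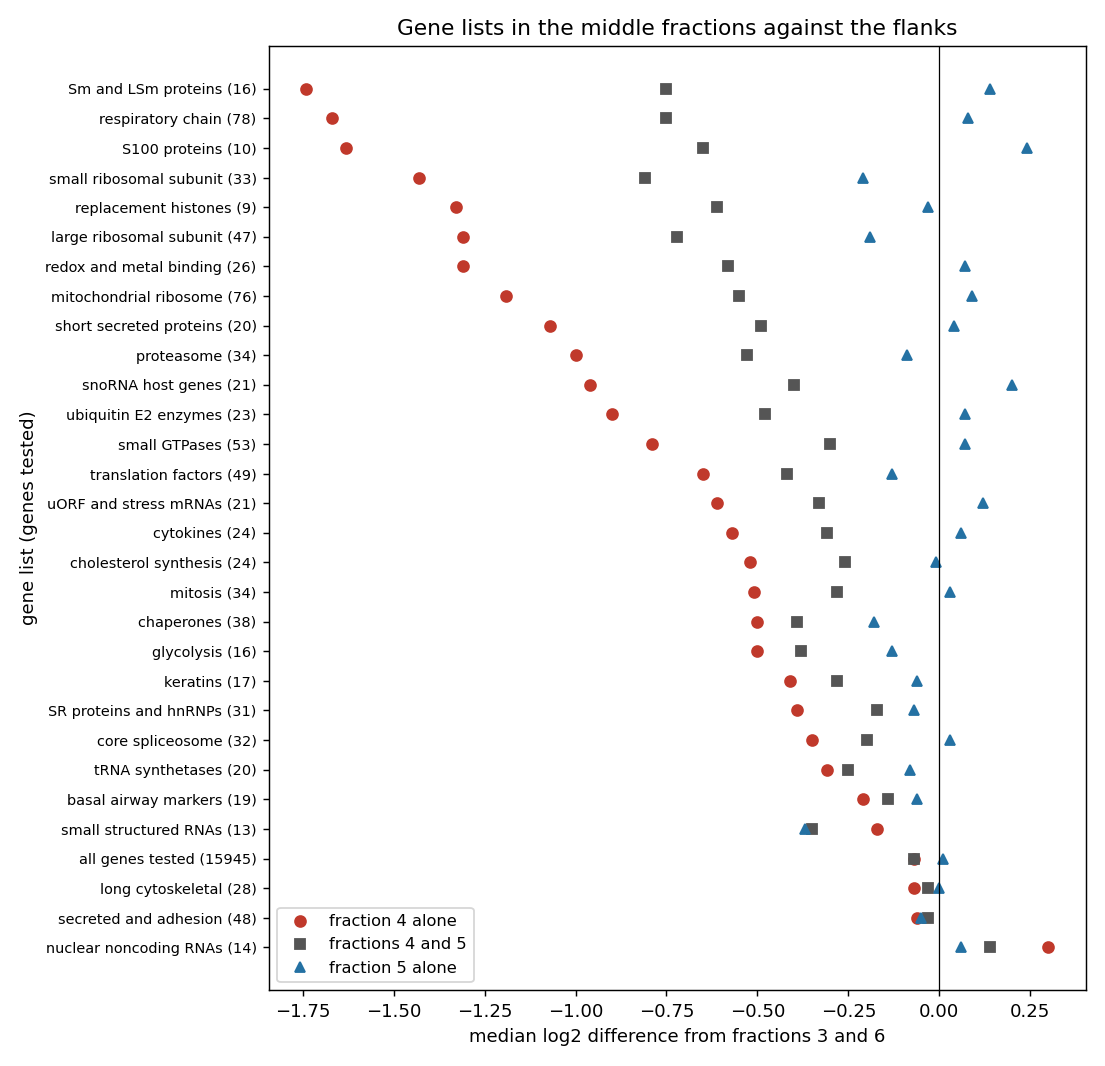
Median log2 difference from fractions 3 and 6 (horizontal axis) for 29 gene lists and for all genes tested, with the number of genes tested in brackets; circles show fraction 4 alone, squares fractions 4 and 5 together and triangles fraction 5 alone. Medians of fraction 4 reach -1.74 for Sm and LSm proteins, while every fraction 5 median lies between -0.37 and 0.24.

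Lists of epithelial barrier and secretion genes differed in the share called lower in fraction 4, which was 13.8% over all genes. They also differed in length, with median models of 822.5 bases for S100, 1059 for short secreted and 5809 for secreted or adhesion proteins. At a mean of at least 10 CPM, 79.6% of all models from 500 to under 1000 bases were lower. It was 66.7% from 1000 to under 1500 and 2.97% from 4000 to under 6000. S100 proteins, small calcium-binding proteins of stratified epithelium, had 7 of 10 genes lower in fraction 4 (median -1.63), 2 without WT fraction 4. S100A2 was at 1800, 267, 1885 and 1233 CPM in WT, 1808, 946, 6072 and 11930 CPM in S34F, and 1872, 480.0, 1537 and 1703 CPM in FS. Fraction 3 was alike in the 3 lines, fraction 4 was lowest in each, and S34F fraction 6 was far above all others. S100A2 fell by 2.40 ± 0.44 (adjusted p = 0.0023) in fraction 4. S100A6 fell by 2.32 ± 0.46 (0.00264). Short secreted proteins, among them protease inhibitors and cornified envelope precursors, had 10 of 20 lower (median -1.07), 3 without WT fraction 4. CSTB, a cathepsin inhibitor, changed by -1.98 ± 0.35 (0.0022) and B2M, the light chain of MHC class I, by -1.84 ± 0.36 (0.00247). Collagens, laminins, integrins and other secreted or adhesion proteins had 1 of 48 lower (CD59, -0.95 ± 0.30, adjusted p = 0.0327) and a median of -0.06, which became 0.17 with relative log expression factors. Keratins had 1 of 17 lower (KRT10, -1.99 ± 0.45, 0.00426), and KRT5, the basal cell keratin, differed by -0.19 ± 0.29 (0.707). Both lists had a smaller share called lower than all genes. Of 24 cytokine and growth factor genes 5 were lower (median -0.57), a share not far from that of all genes. The count was 0 without WT fraction 4 and 2 without S34F fraction 4. Changes were -1.87 ± 0.39 in IL32 (0.00299), -1.61 ± 0.49 in CXCL3 (0.0269) and -1.12 ± 0.32 in CXCL2 (0.0178), while VEGFA differed by 0.02 ± 0.27 (0.968).

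Long cytoskeletal mRNAs showed no common change. Of 28 long cytoskeletal and linker genes none was called in fraction 4 in either direction, and their median was -0.07, the same as for all genes. With relative log expression factors it was 0.15, beside 0.17 for all genes. Over all gene models of 6000 bases or more the median was 0.22. FLNA, the actin cross-linker filamin A, was at 941, 617, 1413 and 1633 CPM in WT, 1801, 2449, 2617 and 2810 CPM in S34F, and 879, 1228, 1144 and 1238 CPM in FS. WT had its lowest value in fraction 4, while S34F and FS had theirs in fraction 3, and the difference was -0.15 ± 0.29 (adjusted p = 0.781). The list's median in fraction 4 was -0.69 in WT, 0.13 in S34F and 0.12 in FS.

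Protein turnover, redox and stress genes dipped in part, beside 13.8% called lower over all genes. At a mean of at least 10 CPM, 66.7% of all models from 1000 to under 1500 bases were lower. It was 45.2% from 1500 to under 2000 and 24.6% from 2000 to under 3000. Median models were 1563.5 bases for proteasome, 2634 for ubiquitin, 2488 for GTPase and 1044 for redox and metal genes. They were 1979 for replacement histones and 2526 for stress mRNAs. The part of length was not tested. Proteasome subunits had 18 of 34 lower in fraction 4 (median -1.0), ubiquitin-conjugating enzymes 13 of 23 (median -0.90) and small GTPases 23 of 53 (median -0.79). Without WT fraction 4 these counts were 0, 1 and 3, without S34F fraction 4 they were 10, 8 and 9, and without S34F fraction 6 they were 10, 8 and 15. Thioredoxins, peroxiredoxins, metallothioneins and ferritins had 16 of 26 lower (median -1.31), 3 without WT fraction 4. TXN, thioredoxin, changed by -2.01 ± 0.35 (adjusted p = 0.0022), GPX4, the peroxidase of lipid hydroperoxides, by -2.01 ± 0.43 (0.00332), and MT1G, a metallothionein with near-identical relatives, by -2.99 ± 0.80 (0.0125), although in S34F it stood at 78.8 CPM in fraction 3 and 92.1 in fraction 4. All 9 replacement histones tested were lower (median -1.33), with changes of -1.81 ± 0.40 in H2AFZ (0.00397) and -1.79 ± 0.37 in H2AFX (0.00305), while replication-dependent histones were not analysed here. None of the 9 was called without WT fraction 4, and without S34F fraction 4 or S34F fraction 6 there were 5. Among mRNAs with upstream open reading frames or stress control 8 of 21 were lower (median -0.61), 1 without WT fraction 4. OAZ1, the antizyme whose synthesis needs a ribosomal frameshift, was at 1948, 352, 2731 and 1789 CPM in WT, 1643, 811, 7358 and 6811 CPM in S34F, and 1192, 398, 2293 and 1453 CPM in FS. OAZ1 was lowest in fraction 4 and highest in fraction 5 in every line. Its change in fraction 4 was -2.11 ± 0.37 (0.0022), and fraction 5 exceeded fraction 4 by 2.90 ± 0.41 (0.000662). DDIT3, the stress transcription factor CHOP, fell by 1.83 ± 0.39 (0.0034) and was likewise highest in fraction 5 in WT and FS, at 222 and 173 CPM, whereas ATF4 differed by -0.54 ± 0.40 (0.377). The share called was smaller for translation factors (17 of 49 lower, median -0.65), chaperones (10 of 38, -0.50), mitosis genes (8 of 34, -0.51), cholesterol synthesis (6 of 24, -0.52), glycolysis (2 of 16, -0.50) and tRNA synthetases (2 of 20, -0.31), below the 13.8% background in the last 2. Without WT fraction 4 at most 1 gene of each of these 6 lists was called lower.

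Lists of noncoding RNAs differed in the share called, and they also differed in length. Host genes of small nucleolar RNAs, which are spliced, exported and decayed on ribosomes, had 10 of 21 lower in fraction 4 (median -0.96), beside 13.8% of all genes. The count was 1 without WT fraction 4 and 5 without S34F fraction 4 or S34F fraction 6. The median model of these host genes was 945 bases. Of all genes tested with models from 500 to under 1000 bases, 52.4% were lower. GAS5 was at 1619, 172, 1182 and 529 CPM in WT, 442, 192, 653 and 682 CPM in S34F, and 617, 153, 524 and 283 CPM in FS, and fell by 1.82 ± 0.36 (adjusted p = 0.00248). ZFAS1 fell by 1.90 ± 0.35 (0.0023). SNHG16 instead declined step by step, from 1648 to 725, 685 and 517 CPM in WT, from 1873 to 802, 660 and 394 CPM in S34F and from 2100 to 1290, 759 and 359 CPM in FS, so that its difference from the flanks was near 0 in fraction 4 (0.06 ± 0.27, adjusted p = 0.918). The list of nuclear long noncoding RNAs had 2 of 14 higher, MEG3 and OIP5-AS1, of which the latter is known as largely cytoplasmic, and none lower, against 0.79% higher of all genes (median 0.30). Neither was called without WT fraction 4, S34F fraction 4 or S34F fraction 6. The median model of this list was 6617.5 bases. Of all genes tested with models of 6000 bases or more, 1.12% were higher and 0.62% lower. The part of length in the contrast between the 2 lists was not tested. MALAT1, a nuclear speckle RNA, was at 1176 to 5187 CPM over the 12 libraries and differed by 0.23 ± 0.38 (0.728). Of 13 small structured RNAs none was called (median -0.17), and RMRP, the RNA of RNase MRP, differed by -0.17 ± 0.47 (0.854).

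Of the 126 genes that rose in fraction 4, the naming rule took the 12 largest rises among genes with a mean of at least 10 CPM and the same sign in each line. OIP5-AS1 led with a rise of 1.64 ± 0.52 (adjusted p = 0.0338). UBXN2B, an adaptor of the p97 ATPase, was at 37.2, 86.0, 62.6 and 58.1 CPM in WT, 33.0, 48.6, 29.1 and 26.2 CPM in S34F, and 43.4, 234, 88.1 and 102 CPM in FS. It was highest in fraction 4 in each line and rose by 1.19 ± 0.28 (0.00598), and ZNF260, a zinc finger gene, rose by 1.01 ± 0.26 (0.00979). WASF3, an activator of actin branching, rose by 1.07 ± 0.36 (0.0439) and the chemokine gene CCL22 by 1.04 ± 0.30 (0.0190). The other 7 of the 12 were FAM71F2, IMPG2, LAMP3, MEG3, NLRC3, NPAP1 and TNNI1, all with means under 35 CPM. The rise was not equal in the lines: MEG3 stood in fractions 3 and 4 at 12.2 and 31.3 CPM in WT, at 12.7 and 19.9 CPM in S34F and at 8.89 and 9.72 CPM in FS. Without WT fraction 4 only 1 gene stayed called higher in fraction 4.

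The size of the dip in fraction 4 was graded by gene length, a property that did not enter the choice of libraries. A length in bases of the gene model, as listed in the authors' RIP-seq tables, was found for 15940 of the 15945 genes (99.97%). The median difference of fraction 4 was -0.97 log2 for the 161 gene models under 500 bases, -1.23 for 759 from 500 to under 1000, -0.96 for 1158 up to 1500, -0.66 for 1615 up to 2000, -0.33 for 3526 up to 3000, -0.04 for 2809 up to 4000, 0.16 for 3332 up to 6000 and 0.22 for 2580 of 6000 or more. The order held from 500 bases upward, and the shortest class was less low than the next. Genes called lower made up 52.4% of the class from 500 to under 1000 bases and 0.62% of the longest class, beside 13.8% over all. Over genes with a mean of at least 10 CPM the medians ran in order from -1.56 in the shortest class to 0.08 in the longest. Of such genes, 79.6% were lower in the class from 500 to under 1000 bases and 66.7% in the next. The median model was 759 bases for large-subunit and 728 for small-subunit ribosomal proteins. It was 940.5 bases for the respiratory chain and 1277.5 for mitochondrial ribosomal proteins. The part of length in the shares called in the gene lists was not tested. In fraction 5 the fit over the 3 lines had the opposite order and a small span, from 0.15 in the class starting at 500 bases down to -0.04 in the longest. FS did not share this order. For the classes starting at 500, 3000 and 6000 bases, fraction 5 medians were -0.06, 0.01 and -0.14 in FS. They were 0.41, -0.02 and 0.04 in WT and 0.20, 0.05 and 0.01 in S34F. The combined middle ran from -0.55 to 0.09 in the fit. Spearman's rho between length and the difference over these genes was 0.49 for fraction 4, -0.14 for fraction 5 and 0.45 for both together, given as a description, since genes of 1 library share its depth and composition.

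**Figure D3:**
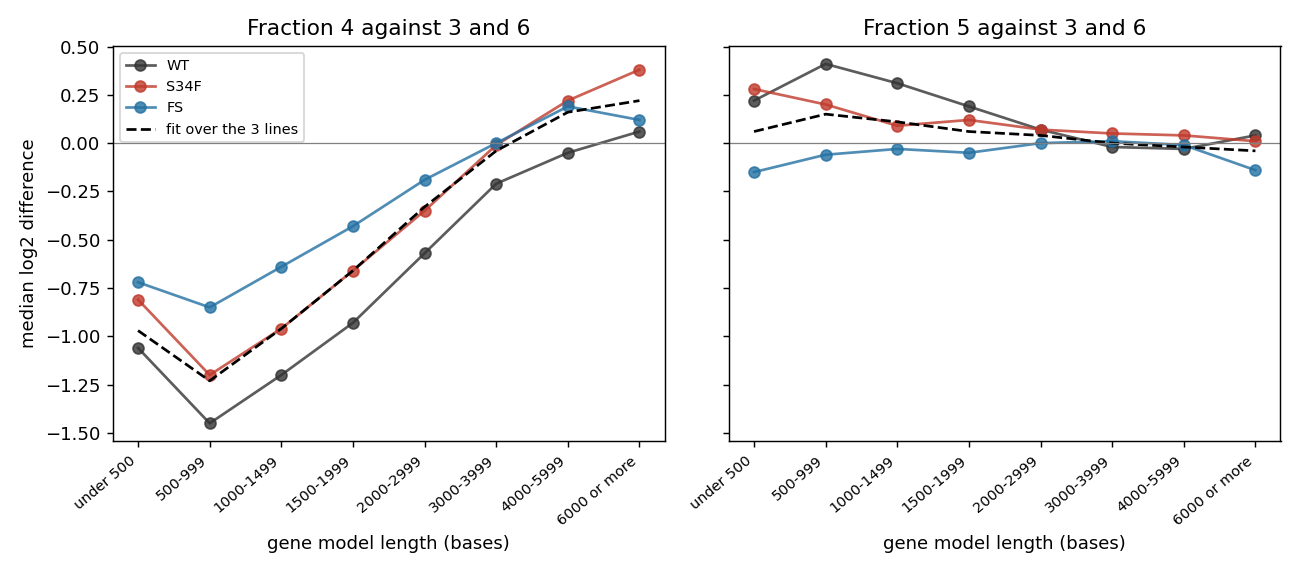
Median log2 difference from fractions 3 and 6 (vertical axis) by class of gene model length in bases (horizontal axis), for fraction 4 (left) and fraction 5 (right); solid lines are single lines of cells with 1 library per fraction and the dashed line is the fit over the 3 lines. In fraction 4 the medians of the fit climb from -1.23 from 500 to under 1000 bases to 0.22 at 6000 or more. In fraction 5 those of the fit stay between -0.04 and 0.15.

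The grade was present in each line. For models from 500 to under 1000 bases the median of fraction 4 was -1.45 in WT, -1.20 in S34F and -0.85 in FS, and for 6000 bases or more it was 0.06, 0.38 and 0.12. The mean model length weighted by counts was 4966 bases in WT fraction 4 against 3182, 3452 and 3928 in fractions 3, 5 and 6. It was 4508 in S34F fraction 4 against 3432, 3329 and 3135, and 4498 in FS fraction 4 against 3573, 3909 and 4276. Fraction 4 thus held the longest mean in every line, by a small step over fraction 6 in FS. Its total counts, 5187992 to 6887114, lay within the range of the other libraries. The part of RNA quality or of library preparation in this grade was not tested.

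Against each flank alone, some genes were called. Relative to fraction 3, 185 genes (1.16%) were lower and 7 (0.0439%) higher in the middle. Relative to fraction 6, 206 (1.29%) were lower and 3 (0.0188%) higher. No gene was called lower than both flanks (0 of 185 and 0 of 206). Sets of 1.16% and 1.29% of all genes would share few members even if unrelated, so no conclusion is drawn from this. A gene called against 1 flank only need not differ between the flanks. The genes below fraction 3 were led by translation RNAs: 25 of 47 large-subunit and 21 of 33 small-subunit ribosomal proteins, 11 of 49 translation factors and 5 of 21 snoRNA hosts, beside 3 of 78 respiratory chain genes. SNHG6 stood at 118, 8.71, 27.2 and 10.4 CPM in WT, 49.7, 22.2, 32.8 and 17.4 CPM in S34F, and 105, 13.7, 10.8 and 5.65 CPM in FS. It dropped after fraction 3 in each line and fell by 2.50 ± 0.34 relative to fraction 3 (adjusted p = 0.000761). SNHG5 changed by -2.27 ± 0.30 (0.000761), RPS12 by -2.21 ± 0.35 (0.00227), RPS23 by -2.17 ± 0.33 (0.00184) and EEF1A1 by -1.51 ± 0.28 (0.00673). SH2B3 and ZC3H7B rose over fraction 3 by 1.34 ± 0.30 and 1.33 ± 0.32 (0.0204 and 0.0363). SH2B3 was at 84.0, 191, 195 and 264 CPM in WT, 121, 229, 181 and 243 CPM in S34F, and 107, 669, 284 and 420 CPM in FS, so fraction 3 was its lowest fraction in each line. Without WT fraction 3 the lower count was 10, and it was 13 without FS fraction 3. It was 72 without WT fraction 4, 86 without S34F fraction 4, 93 without FS fraction 5 and 107 without WT fraction 5.

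The genes below fraction 6 were led by the respiratory chain. It held 26 of 78 genes lower, with 3 of 76 mitochondrial ribosomal proteins, 3 of 10 S100 proteins, 4 of 9 replacement histones, 0 of 47 large-subunit and 1 of 33 small-subunit ribosomal proteins. COX7A2 changed by -2.06 ± 0.32 relative to fraction 6 (adjusted p = 0.018), COX6C by -1.86 ± 0.32 (0.0301), SLIRP, an RNA-binding protein of mitochondria, by -1.85 ± 0.34 (0.0301) and S100A6 by -1.74 ± 0.40 (0.0389). These calls rested on few libraries. Without S34F fraction 6 the count of lower genes was 0, without S34F fraction 4 it was 2, without WT fraction 4 it was 3, without S34F fraction 5 it was 7, and without FS fraction 5 or FS fraction 6 it was 0. Genes lower than fraction 6 numbered 64, 102, 126 and 136 without WT fraction 5, FS fraction 3, WT fraction 3 and S34F fraction 3, and 381 and 597 without FS fraction 4 and WT fraction 6.

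The 3 lines differed in the depth of the dip, as values with 1 library each and no test. Median differences of fraction 4 over all genes were -0.38 in WT, -0.03 in S34F and -0.07 in FS. For respiratory chain genes they were -1.80, -1.62 and -1.25, for small-subunit ribosomal proteins -1.87, -1.38 and -0.98, for proteasome genes -1.48, -0.93 and -0.53, and for glycolysis -1.08, -0.39 and -0.07. WT was lowest and FS least low in each of these 4 lists. The order was not the same in all lists. In WT, S34F and FS the median was -1.74, -1.84 and -1.25 for S100 proteins and -1.57, -1.68 and -1.33 for Sm and LSm proteins. These values were not set relative to the median of all genes, which was itself lowest in WT. In fraction 5 the respiratory chain median was 0.53 in WT, -0.06 in S34F and -0.19 in FS. The course over the middle also differed: relative to the mean of fractions 3 to 6 the respiratory chain list stood in fractions 3, 4, 5 and 6 at 0.58, -1.43, 0.88 and 0.01 in WT, at -0.34, -1.24, 0.41 and 1.05 in S34F, and at 0.26, -0.87, 0.17 and 0.41 in FS. S34F climbed to fraction 6, WT fell back there, and fraction 4 was lowest in all. Both middle fractions lay below both flanks for 1757 genes in WT, 2057 in S34F and 2523 in FS, and above both for 1817, 2158 and 1446.

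**Figure D4:**
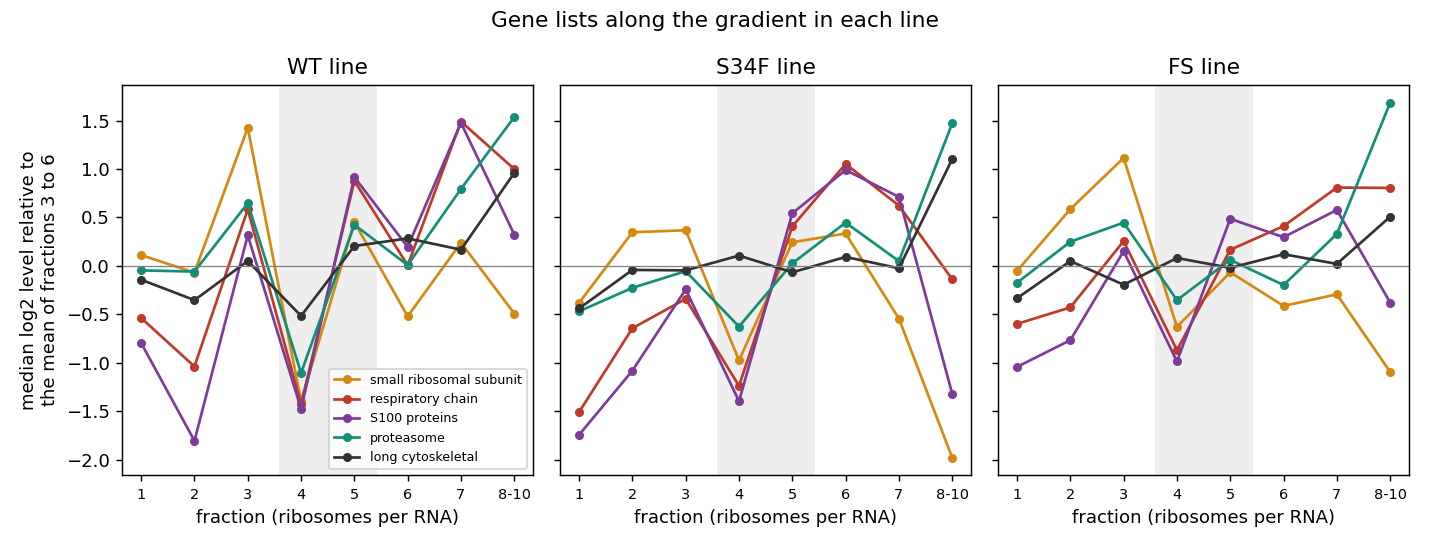
Median log2 level of 5 gene lists (vertical axis, relative to each gene's mean over fractions 3 to 6) along the 8 fractions (horizontal axis) in each line, 1 library per point; the grey band marks fractions 4 and 5. Small-subunit ribosomal, respiratory chain, S100 and proteasome lists drop in fraction 4 in all 3 lines, whereas the long cytoskeletal list drops in WT (-0.52) and not in S34F (0.11) or FS (0.08).

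Other readouts described the genes lower in fraction 4. Their median gene model was 1601 bases against 3256.5 for all genes tested, and their median level in the cytosolic RNA of the RIP-seq experiment was 37.0 CPM against 8.95. Coding genes made up 96.9% of them against 91.6%. A cytoplasmic PAR-CLIP cluster of wild-type U2AF1 in the Flp-In-293 line of human embryonic kidney cells was listed for 1106 of the 2195 (50.4%) and for 42.4% of all genes. The sets differed in abundance and length, whose part in this share was not tested. The median log2 ratio of U2AF1 precipitate to control immunoglobulin was 0.08 for them and 0.01 for all. The 126 genes higher in fraction 4 had a median model of 4575 bases, a cytosolic level of 0.904 CPM, a cluster in 27.0% and a coding share of 84.0%.

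Markers of the labelled cell type were present at unlike levels. Basal airway markers KRT5, KRT14, TP63 and ITGB4 were at 778 to 5149, 269 to 1347, 97.3 to 254 and 1232 to 3313 CPM over the 12 libraries. Others of the same list were lower, with EPCAM at 1.095 to 2.905 CPM, NGFR at 2.202 to 22.64, PDPN at 14.9 to 25.41 and KRT15 at 8.299 to 109.5. Summed CPM of the 19 basal markers ran from 7860 to 21680 in the middle and from 10970 to 29150 in the flanks, and S100A2 alone was lower among them in fraction 4. Among 15 secretory and ciliated markers SCGB1A1 was at most 0.404 CPM and FOXJ1 at most 1.80, while MUC5B reached 22.3 CPM, MUC5AC 6.78 and DNAH11 8.58, CAPS ran from 12.7 to 23.8 and TUBB4B from 89.3 to 303. Their sum was 118 to 296 CPM in the middle and 113 to 324 in the flanks. Mesenchymal markers summed to 91.2 to 403 CPM in the middle and 122 to 703 in the flanks, most of it VIM, with LUM at most 0.968 and DCN at most 0.830 CPM. Leukocyte markers summed to 83.1 to 279 CPM and 81.5 to 237, nearly all of it CD68 (47.5 to 151) and LYZ (0 to 142), with CD3D at most 0.404 CPM. The markers of other cell types that passed the filter on low counts had higher medians in fraction 4 than all genes (-0.07): 1.08 log2 over 7 secretory and ciliated markers, 1.01 over 5 leukocyte markers and 0.36 over 8 mesenchymal markers. None of these was called higher, though 2 secretory and ciliated markers were with relative log expression factors, and TAGLN was lower (-1.33 ± 0.36, adjusted p = 0.0135). The medians were 0.47, 0.61 and 0.14 without WT fraction 4. Only 7 of 15 secretory and ciliated, 5 of 10 leukocyte and 8 of 12 mesenchymal markers passed the filter. It asked for counts in only some of the 24 libraries, so a marker could pass through libraries where it was high. These medians may therefore lean upward, and no conclusion is drawn from them. In these bulk libraries fewer cells of a type and less RNA per cell cannot be told apart, and the part of these markers in the results was not tested.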

How the data were processed

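Polysome fractions of 3 HBEC lines were sequenced, 24 libraries in all. Per the file headers, the deposited table gives counts per gene symbol, which are expected counts since 57.5% of its values are not whole. TopHat is named in the submitters' processing notes without a version, and counting tool, annotation, build and use of strand are not given in the sources used here. Of 21603 entries, 28 named as dates and 45 repeats were dropped, and expected counts were rounded. edgeR 4.0.16 in R 4.3.3 (filterByExpr, TMM, quasi-likelihood test, Benjamini-Hochberg, adjusted p under 0.05) was fitted to all 24 libraries with fraction and line as terms (14 residual degrees of freedom, limma 3.58.1 loaded). DESeq2 1.42.0 was an alternative. SEs are the log2 difference divided by the root of F. The script was tested on simulated data. Same-numbered samples come from 1 line, so line is a block: deviations of the 18 same-line library pairs had a median correlation of 0.388 (0.071 to 0.635).

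Genes were named by rule: the 12 largest called differences per direction with a mean of at least 10 CPM, the same sign in 3 lines and no library at 0, up to 3 called members and the most abundant uncalled member per list, and 8 fixed genes. No gene qualified in the combined comparison, so the rule was applied to fraction 4 after its values were seen, and some further genes were also named then. Members and lists were chosen with earlier results of these data known. PAR-CLIP read counts per cluster, pooled over replicates by the authors, served only to list genes with a cluster. The RIP-seq tables gave gene model lengths and cytosolic levels, the latter from the authors' estimated counts.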

Additional observations from a re-analysis of the deposited data

Results flagged for a closer look

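For 61 named genes the log2 CPM of the 6 middle and of the 6 flanking libraries were examined for a single value far from the other 5, as the gap to the nearest divided by the whole range. In independent groups of like samples, chance takes about 1 in 20 above Dixon's critical value for 6 samples. Here some genes were named for differences between the same libraries, groups mix fractions and lines, and genes share libraries. The chance rate is therefore not known, and no conclusion is drawn from the number of groups above the value. Of the 122 groups, 11 had a ratio above Dixon's critical value. In 8 of them S34F fraction 6 was the highest flanking library: the ratio was 0.643 for ATP5EP2, 0.739 for COX6C, 0.800 for COX7C, 0.718 for OAZ1, 0.663 for ROMO1, 0.826 for RPA3, 0.816 for S100A2 and 0.701 for SNRPD2. In CCL22 the same library was the lowest, with a ratio of 0.635. FS fraction 4 was far above the other middle libraries for SNHG16 (0.708), and FS fraction 5 far below them for SREBF2 (0.626).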

How the results depend on the processing

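Counts below are given as higher and lower. With DESeq2 they were 2 and 56 in the combined middle, 138 and 287 against fraction 3, 37 and 559 against fraction 6, 1556 and 1971 in fraction 4, 1 and 0 in fraction 5, and 1843 and 1240 for fraction 5 against 4. Relative log expression factors gave 36 higher than fraction 3, 5 higher than fraction 6, 1256 higher in fraction 4, and 666 lower in 5 than in 4. With no filter on low counts 626 were higher in fraction 4, and 1417 higher and 249 lower in 5 than in 4. The 12 libraries alone gave 1 and 1 in the middle, 13 higher than fraction 3, 0 and 2 against fraction 6, 1029 higher in fraction 4, 1 lower in fraction 5, and 642 lower in 5 than in 4. With no replicate block, counts were 0 and 0 against each flank, 5 and 495 in fraction 4, and 806 and 7 for 5 against 4. Flanks 2 and 7 gave 102 and 18 in the middle, 59 and 599 in fraction 4, 879 and 26 in fraction 5, and reversed SNHG16 to 1.04. Without 122 genes at 0 in 1 library and at least 50 CPM in another, 317 were lower than fraction 6. Fraction 4 alone as the middle gave 126 and 2195, as in the report.

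Leaving out 1 line or library gave 0 to 4 higher and 0 to 5 lower in the middle, 0 to 58 and 1 to 279 against fraction 3, 0 to 3 and 0 to 597 against fraction 6, 1 to 1131 and 240 to 2578 in fraction 4, 0 to 2 and 0 to 3 in fraction 5, and 572 to 2311 and 4 to 354 for 5 against 4. Among the named genes called in fraction 4, 386 of 2002 values over the settings lost the call, and 75 of 91 genes lost it in some setting. None of these values changed sign. Of values not called in the main fit, 18 gained a call with the same sign and 1 with the opposite sign. With or without a call, the sign changed in 27 of 851 values for the combined middle (15 of 37 genes). In fraction 4 it changed in 54 of 2771 (18 of 126 genes). Without S34F fraction 6 the genes lower in the middle at an unadjusted p under 0.05 went from 1620 to 591. The cause of these shifts was not tested. Protein length was planned as the measure of length and was not run, so gene model length was used. Differences between lines in the depth of the dip were not tested.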
